A study of Mus musculus with 9 samples.

Results

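Tuft cells are a rare chemosensory lineage of the intestinal epithelium. They read luminal cues through a taste-like cascade, in which a receptor signals through the G protein α-gustducin (*Gnat3*) and phospholipase C to open the cation channel TRPM5, and they answer with interleukin 25, leukotrienes and prostaglandins that act on immune cells of the mucosa. Their identity depends on the POU-domain transcription factor POU2F3. In the mouse colon they are long known by the kinase DCLK1.

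To see whether loss of *Setd2* changed the transcripts of this lineage in epithelium with a *Smad4* knockout genotype, 9 known marker genes were taken by symbol from the 46095 symbols of the count table: *Dclk1*, *Trpm5*, *Pou2f3*, *Il25*, *Gnat3*, *Alox5*, *Ptgs1*, *Avil* and *Sh2d6*. All 9 were in the table. The RNA came from intestinal epithelial cells (IECs) released from the colon with EDTA, in 4 libraries with the genotype Smad4-knockout (*Smad4* Vil-KO, here the single knockout) and 5 with Smad4-knockout;Setd2-knockout (*Smad4* Vil-KO;*Setd2* Vil-KO, here the double knockout). In both genotypes the floxed genes were deleted by Cre under the Villin promoter, which acts in the intestinal epithelium and leaves other cells of the preparation with intact genes. The mice had a C57BL/6j background, received AOM at 10 mg/kg when 8 weeks old, then 2% DSS for a single course, and IECs were taken at 10 days, so that every library carried the *Smad4* knockout genotype by its label and came from colon treated with AOM and DSS. AOM is a colon carcinogen and DSS a detergent-like polymer that injures the colonic epithelium.

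The 9 libraries held 12487129 to 17120202 counts each, and levels are given as CPM, the TMM-normalized count relative to library size, in which a single count amounts to 0.0594 to 0.0794 CPM. *Setd2* was lower in the double knockout (113 ± 9.45 CPM, SD, n = 4, against 66.1 ± 14.7 CPM, SD, n = 5; log2 fold change -0.77, adjusted p = 0.00756), and each of the 5 double knockout libraries lay below all 4 single knockout libraries for it. *Smad4* was at 54.3 to 92.7 CPM in the single and 38.2 to 114 CPM in the double knockouts (log2 fold change 0.13, 95% interval -0.59 to 0.85, adjusted p = 0.819), and with no library of intact *Smad4* in the comparison these gene-level counts do not check its deletion. The double knockout libraries differed among themselves. On the first principal component of all genes (46.6% of the variance) the single knockouts lay from -47.8 to -36 and double knockout replicates 1 to 4 at 55, 48.9, 22.5 and 32.3, with replicate 5 at 4.11, nearest to the single knockouts. Counts of genes averaging at least 1 count were also compared between libraries of the same genotype. Replicate 5 had a chi-square of 17.9 and 21.8 per gene against replicates 3 and 4. Replicates 1 and 2 had 34.6 to 52 against those libraries, so that they stood apart from the other 3 by this measure. No pair across the genotypes was computed, so it does not place replicate 5 relative to the single knockouts. Double knockout replicates 1, 2 and 5 also carried 4907, 4745 and 3857 counts of 4 Y-linked genes, where the other 6 libraries carried 0 to 28. The markers are given with and without replicate 5 because it was the highest library for each of those tested, a choice made after their values were seen, and so are the calls of the other lists that change without it. The fits without it describe how far the result rests on 1 library. The sources used here do not say whether each library came from 1 mouse, so p-values measure the spread between these libraries.

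*Dclk1* and *Trpm5* reached the highest counts of the markers in the single knockouts (483 and 317), and their promoters are shown because *Dclk1* counts join 2 starts. RefSeq (GRCm38.p6) gives *Dclk1*, on chromosome 3 (55242364 to 55539068, plus strand), an upstream and an internal start, whose transcripts the counts do not separate. *Trpm5* lies on chromosome 7 (143069153 to 143094642, minus strand) with 1 start in the same table. The 250 bases before each start are printed 5′ to 3′ on the gene's strand, and the POU octamer ATGCAAAT, or ATTTGCAT on the other strand, would stand in capitals.
Dclk1, upstream start, chr3:55242114-55242363: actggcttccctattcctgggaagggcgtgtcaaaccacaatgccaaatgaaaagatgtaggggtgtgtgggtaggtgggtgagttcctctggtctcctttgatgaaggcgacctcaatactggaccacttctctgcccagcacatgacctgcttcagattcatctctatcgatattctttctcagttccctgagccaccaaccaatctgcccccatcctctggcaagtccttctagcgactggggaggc
Dclk1, internal start, chr3:55461478-55461727: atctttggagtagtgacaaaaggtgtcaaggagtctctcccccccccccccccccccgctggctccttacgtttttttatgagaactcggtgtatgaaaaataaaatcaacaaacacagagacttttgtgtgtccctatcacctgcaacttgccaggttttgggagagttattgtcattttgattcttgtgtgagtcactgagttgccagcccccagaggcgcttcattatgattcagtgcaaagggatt
Trpm5, chr7:143094643-143094892: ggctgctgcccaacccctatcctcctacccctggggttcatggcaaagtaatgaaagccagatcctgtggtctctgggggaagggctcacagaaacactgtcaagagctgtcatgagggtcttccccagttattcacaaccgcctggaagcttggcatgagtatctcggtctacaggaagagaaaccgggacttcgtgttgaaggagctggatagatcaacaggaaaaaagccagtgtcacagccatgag

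The octamer was in none of these windows on either strand, nor in any of the 8 promoters that the table holds for 7 of the 9 markers. It was in 1.6% of all 32851 promoters of that length, and its absence says only that these letters are not in the window.

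Across all 9 libraries, 8 of the 9 markers could be tested, all 8 had a lower fitted level in the double knockout, and none was called by the quasi-likelihood test of edgeR at an adjusted p under 0.05 (from 0.211 for *Alox5* to 0.718 for *Pou2f3*, where 13.3% of the 14593 genes tested were called, 6.54% as lower). The count was also 0 at an unadjusted p under 0.05 (15.3% of all genes were lower at that level), with DESeq2 (9.12% lower) and with a robust dispersion (6.46% lower), and limma-voom with quality weights called *Alox5* (log2 fold change -1.10, adjusted p = 0.0366, with 10.5% of all genes called lower). The median log2 fold change over the 8 markers was -0.51, against 0.00 over all genes tested. In these bulk libraries fewer tuft cells and less RNA per tuft cell cannot be told apart. No marker had all 5 double knockout libraries below, or all above, the single knockouts, as 8.87% and 8.34% of all genes had. For each of the 8 markers double knockout replicate 5 was the highest of all 9 libraries, while double knockout replicates 1 to 4 lay below the lowest single knockout for 7 of them. Replicate 5 was the highest of the 9 libraries for 7.75% of all genes tested.

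**Figure D1:**
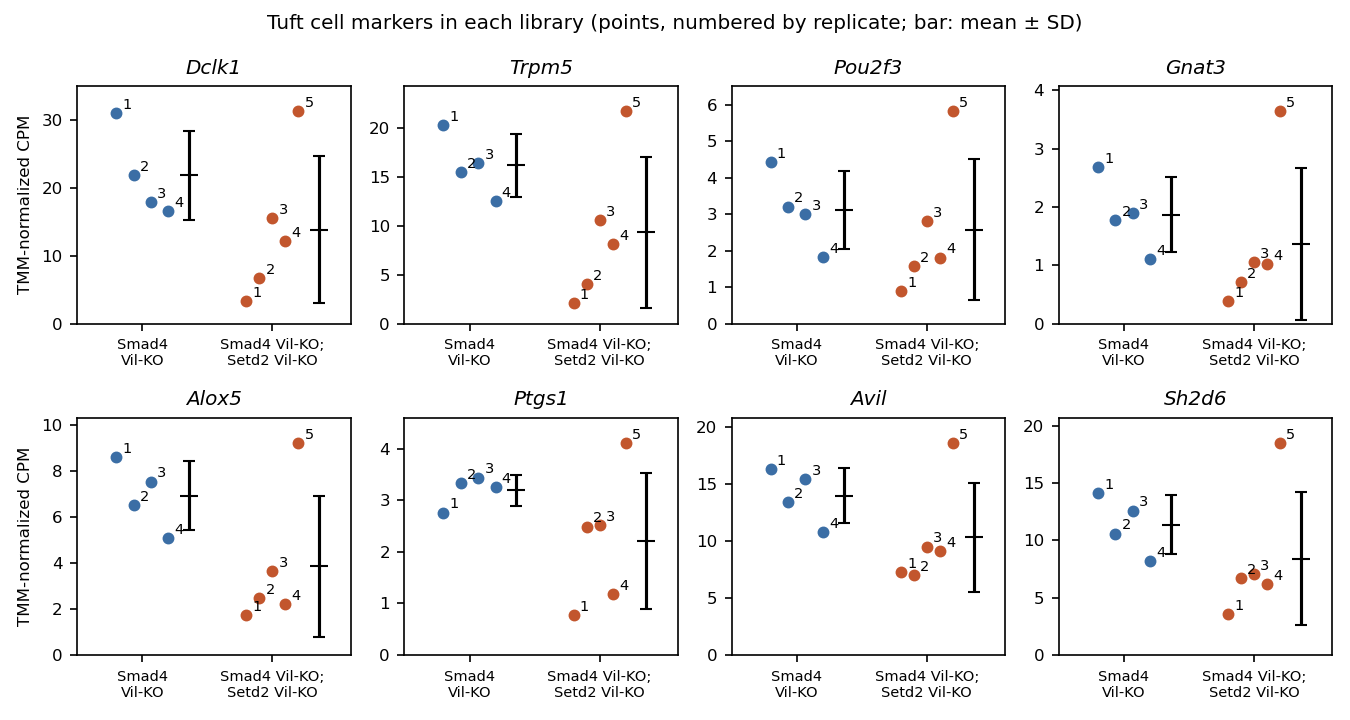
Level of each tested marker in every library, in TMM-normalized CPM on linear axes from 0, with the 4 single knockout libraries in blue and the 5 double knockout libraries in orange, numbered by replicate, and the mean ± SD as a black bar. In each panel double knockout replicate 5 is the highest point, and in all but that of *Pou2f3* replicates 1 to 4 lie under the lowest single knockout.

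The receptor cascade was measured through *Gnat3* and *Trpm5*. *Trpm5*, the cation channel that depolarizes the cell, was at 20.3, 15.5, 16.4 and 12.5 CPM in single knockout replicates 1 to 4 and at 2.12, 4.06, 10.6, 8.1 and 21.7 CPM in double knockout replicates 1 to 5. Replicates 1 to 4 of the double knockout were thus all below the single knockouts and replicate 5 above all of them. Mean levels of 16.2 ± 3.25 CPM in the 4 single knockouts and 9.32 ± 7.69 CPM (SD) in the 5 double knockouts gave a log2 fold change of -0.80 (95% interval -1.91 to 0.30, adjusted p = 0.304 from edgeR). Without replicate 5 it was -1.37 (adjusted p = 0.0411 from edgeR).

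*Gnat3*, which encodes the α subunit of gustducin, lies on chromosome 5 (17962549 to 18019834, plus strand). It was at 2.69, 1.78, 1.9 and 1.11 CPM in the single knockouts and at 0.385, 0.712, 1.05, 1.02 and 3.64 CPM in the double knockouts, which is 6 to 47 counts per library over all 9. The groups again separated but for replicate 5, which had 1.95 times the single knockout mean, the largest such excess among the 8 markers. Its log2 fold change was -0.48 (95% interval -1.70 to 0.74, adjusted p = 0.59 from edgeR), and -1.24 without replicate 5 (adjusted p = 0.0499 from edgeR), a value just inside the threshold.

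*Pou2f3*, the lineage-defining transcription factor (chromosome 9, 43123939 to 43210369, minus strand), was at 4.43, 3.21, 3.01 and 1.83 CPM in the single knockouts and at 0.897, 1.57, 2.8, 1.81 and 5.82 CPM in the double knockouts. It was the 1 tested marker whose groups overlapped even without replicate 5, since double knockout replicate 3 lay above single knockout replicate 4. Its log2 fold change was the smallest of the 8, at -0.29 (95% interval -1.33 to 0.76, adjusted p = 0.718 from edgeR), and without replicate 5 it was -0.81 (adjusted p = 0.155).

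*Dclk1*, a microtubule-associated kinase and the classical tuft cell marker, was at 31, 21.9, 17.9 and 16.6 CPM in the single knockouts and at 3.33, 6.76, 15.6, 12.2 and 31.3 CPM in the double knockouts. The span within the double knockout was 9.38-fold between replicates 5 and 1 (403 and 52 counts), wider than the distance between the genotype means of 21.8 ± 6.51 and 13.8 ± 10.8 CPM (SD, n = 4 and 5). The log2 fold change was -0.67 (95% interval -1.75 to 0.41, adjusted p = 0.38 from edgeR). Without replicate 5 it was -1.20 and still missed the threshold (adjusted p = 0.0622 from edgeR).

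The output of the lineage was measured through the eicosanoid enzymes *Alox5* and *Ptgs1* and the cytokine *Il25*. *Alox5*, the 5-lipoxygenase that starts leukotriene synthesis (chromosome 6, 116410077 to 116461178, minus strand), was at 8.6, 6.54, 7.55 and 5.08 CPM in the single knockouts and at 1.73, 2.49, 3.64, 2.2 and 9.23 CPM in the double knockouts. Double knockout replicates 1 to 4 were all under the single knockouts and replicate 5 above them. *Alox5* had the largest difference of the markers, with a log2 fold change of -0.86 (95% interval -1.82 to 0.11, adjusted p = 0.211 from edgeR), and -1.45 without replicate 5 (adjusted p = 0.00674 from edgeR).

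*Ptgs1*, the constitutive cyclooxygenase of prostaglandin synthesis (chromosome 2, 36230426 to 36252272, plus strand), was at 2.76, 3.33, 3.44 and 3.26 CPM in the single knockouts and at 0.769, 2.49, 2.52, 1.18 and 4.11 CPM in the double knockouts. It was the steadiest marker among the single knockouts (SD 0.301 CPM), and here single knockout replicate 1 was the lowest of the 4, where it was the highest for the other 7. Its log2 fold change was -0.53 (95% interval -1.42 to 0.35, adjusted p = 0.392 from edgeR) and -0.86 without replicate 5 (adjusted p = 0.124).

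*Il25*, the cytokine with which tuft cells call on type 2 innate lymphoid cells (chromosome 14, 54932695 to 54935837, plus strand), was not measurable at this depth. It had 0 counts in all 4 single knockout libraries and in double knockout replicates 2 to 4, and 1 count in each of replicates 1 and 5. A count of 0 allows up to 3 counts per library, or 0.178 to 0.238 CPM depending on the library, for counting error only. The low-count filter removed it, and with 2 counts in all the genotypes could not be compared.

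*Avil* and *Sh2d6* are the remaining markers. *Avil* encodes advillin, an actin-binding protein of the villin family (chromosome 10, 127000709 to 127020994, plus strand), and was at 16.3, 13.4, 15.4 and 10.8 CPM in the single knockouts and at 7.31, 7.04, 9.51, 9.12 and 18.6 CPM in the double knockouts. Double knockout replicates 1 to 4 stood at 0.504 to 0.681 of the single knockout mean, a narrower span than for any other marker, and under all 4 single knockouts. The log2 fold change was -0.44 (95% interval -1.04 to 0.16, adjusted p = 0.299 from edgeR) and -0.75 without replicate 5 (adjusted p = 0.0165 from edgeR). Of its exon bases, 4.86% are shared with *Tsfm* on the opposite strand, so that reads of the pair cannot be told apart there if the counting ignored strand. The same holds for 3.44% of the exon bases of *Trpm5* (with *Tssc4*), 3.81% of *Ptgs1* (with *Gm43621*) and 0.745% of *Dclk1*. *Tsfm*, a mitochondrial translation factor, was at 17.6 to 24.8 CPM across the 9 libraries, and *Tssc4* at 16.8 to 28.3 CPM.

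*Sh2d6*, an SH2-domain protein of tuft cells (chromosome 6, 72513641 to 72521707, minus strand), was at 14.1, 10.6, 12.6 and 8.18 CPM in the single knockouts and at 3.59, 6.69, 7.06, 6.21 and 18.5 CPM in the double knockouts. All of double knockout replicates 1 to 4 lay under the single knockout range, and replicate 5 was at 1.62 times the single knockout mean. The log2 fold change was -0.44 (95% interval -1.30 to 0.42, adjusted p = 0.468 from edgeR) and -0.94 without replicate 5 (adjusted p = 0.0258 from edgeR).

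Without double knockout replicate 5, therefore, 5 of the 8 tested markers were lower at an adjusted p under 0.05 (*Alox5*, *Avil*, *Sh2d6*, *Trpm5* and *Gnat3*) and none higher, where 9.08% of 14495 genes were called lower and 9.52% higher in that fit. The median log2 fold change of the 8 was then -1.07, against 0.01 over all genes. For 7 of the 8 markers every remaining double knockout library lay under every single knockout library, as it did for 13.5% of all genes. Leaving out any other single library gave no call. With the replicate number as a block, in which replicate 5 has no partner and adds nothing, *Alox5* and *Avil* were lower (5.69% of all genes were). Replicate 5 is a double knockout by its label, and its *Setd2* level of 76.1 CPM was below all 4 single knockouts, so the comparison over all 9 libraries is the one the design gives. Some other genes were near single knockout level in it. *Fabp6*, an enterocyte gene, was at 5.89 CPM, against 4.43 to 4.69 CPM in the single knockouts and 21.5 to 61.8 CPM in double knockout replicates 1 to 4. *Sis*, another such gene, was not, at 85.3 CPM against 0.449 to 7.43 CPM in the single knockouts.

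**Figure D2:**
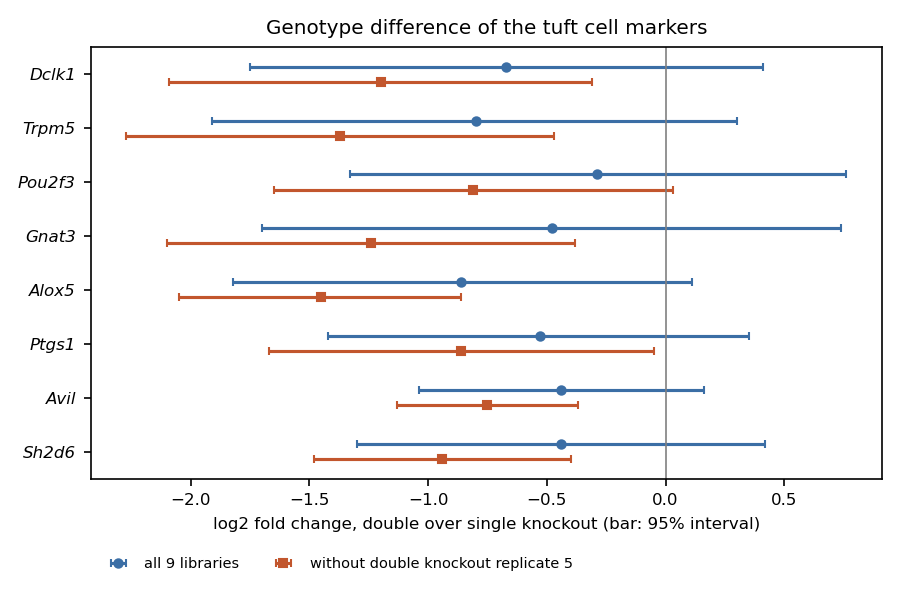
Log2 fold change of the double over the single knockout for the 8 tested markers, with all 9 libraries (blue circles) and without double knockout replicate 5 (orange squares), the bars showing 95% intervals of edgeR's quasi-likelihood fit. All 8 blue intervals span 0, and 7 of the 8 orange intervals lie below it, *Pou2f3* being the exception.

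Libraries with many and few Y-linked counts were also examined apart, since the former were all double knockouts. With a term for these libraries no marker was called, against 4.33% of all genes called lower (log2 fold changes from -1.24 for *Alox5* to -0.44 for *Pou2f3*). Among the 4 single knockouts and double knockout replicates 3 and 4 alone, 3 markers were lower at an adjusted p under 0.05 in edgeR (*Trpm5*, *Alox5* and *Sh2d6*), with 10.1% of genes called lower in that fit. Double knockout replicates 1 and 5, both with many Y-linked counts, were the lowest and the highest library for 7 of the 8 markers. The 3 libraries with many Y-linked counts were all double knockouts, and the fit with a term for them rests on double knockout replicates 3 and 4 for the genotype.

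The markers moved together from library to library. Double knockout replicate 1 was the lowest of the 9 libraries for 7 markers and replicate 2 for *Avil*, where replicate 1 was the lowest for 19.6% of all genes. As a median over the 8 markers, the level relative to the single knockout mean was 1.25, 0.957, 1.05 and 0.746 in single knockout replicates 1 to 4 and 0.245, 0.441, 0.669, 0.546 and 1.39 in double knockout replicates 1 to 5. The spread was therefore already visible among the single knockouts, and the double knockouts extended it in both directions.

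The proportions among the markers varied between libraries. *Dclk1* made up 22.9% to 30.9% of the summed CPM of the 8 markers in the single knockouts and 27.7% to 29.5% in double knockout replicates 3 to 5, but 16.6% and 21.3% in replicates 1 and 2. *Trpm5* followed, with 19.2% to 21% in those 7 libraries and 10.5% and 12.8% in double knockout replicates 1 and 2. *Avil* took the opposite course, with 16.3% to 19.7% in the single knockouts and 36.3% in double knockout replicate 1, the library in which *Dclk1* and *Trpm5* stood at 0.153 and 0.131 of the single knockout mean and *Avil* at 0.523. It was also above the single knockout range in double knockout replicates 2 and 4, at 22.1% and 21.8%. The part that reads shared with *Tsfm* may have in the *Avil* share was not tested. *Alox5* held 8.57% to 9.66% in the single knockouts and 5.26% to 8.6% in the double knockouts, and *Ptgs1* 2.75% to 5.49% and 2.82% to 7.83%. These shares were chosen for mention after their values were seen.

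Levels of different genes can be set against each other only per length. Per kilobase of exon (GENCODE M21, GRCm38), *Sh2d6* was the most abundant marker in the single knockouts at 6.72 ± 1.52 CPM per kb (SD, n = 4), followed by *Avil* at 4.11 ± 0.719, *Trpm5* at 2.53 ± 0.508, *Alox5* at 1.69 ± 0.365, *Dclk1* at 1.43 ± 0.425, *Gnat3* at 1.38 ± 0.477, *Pou2f3* at 1.01 ± 0.345 and *Ptgs1* at 0.823 ± 0.0774 CPM per kb. *Sh2d6* and *Avil* were the only neighbours in this order whose single knockout ranges did not overlap (4.84 to 8.35 against 3.18 to 4.8 CPM per kb). The ranges of the remaining neighbours overlapped between libraries, but within each library *Avil* was above *Trpm5* in all 9. *Trpm5* was above *Alox5* in 4 of 4 single and 4 of 5 double knockouts, *Alox5* above *Dclk1* in 4 of 4 and 3 of 5, and *Gnat3* above *Pou2f3* in 4 of 4 and 3 of 5. *Dclk1* and *Gnat3* (3 of 4 and 2 of 5) and *Pou2f3* and *Ptgs1* (3 of 4 and 4 of 5) were in this order in fewer than all libraries of both genotypes. The exon length of *Dclk1*, 15.3 kb over all its annotated transcripts, counts bases that no single transcript holds, so its level per kb is a low estimate.

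A further 48 genes known from tuft cells were listed beside the markers, and 46 of them were found in the table (*Irag2* under its older symbol *Lrmp*; *Pou2af2* and *Pou2af3* were not matched). Of the 38 that could be tested, edgeR called 2 higher and 1 lower in the double knockout, where 6.76% of all genes were called higher and 6.54% lower. Of the 38, 25 had a negative log2 fold change, and the median was -0.12. *Lrmp*, an endoplasmic reticulum protein that binds inositol trisphosphate receptors, fell from 32.8 to 17.8 CPM (log2 fold change -0.88, adjusted p = 0.00836), and all 5 double knockout libraries lay below the single knockouts. The phosphatase gene *Ptpn6* rose from 35.6 to 53.2 CPM (log2 fold change 0.58, adjusted p = 0.00369) and the transcription factor gene *Etv1* from 0.735 to 1.77 CPM (1.26, adjusted p = 0.0327). *Ptpn6* encodes SHP-1, which leukocytes also express.

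The wider list repeated the library pattern of the markers in part. Double knockout replicate 5 was the highest of the 5 double knockouts for 27 of the 38 genes, against 21.9% of all genes, and the highest of all 9 libraries for 20 of them. *Sh2d7*, a second SH2-domain gene, was at 13.7, 7.84, 9.89 and 5.95 CPM in the single knockouts and at 1.92, 4.7, 5.03, 6.06 and 15.8 CPM in the double knockouts (log2 fold change -0.49, adjusted p = 0.519). The homeobox gene *Hmx2* was at 0.921 to 1.35 CPM in the single knockouts and at 0.0641, 0.213, 0.419, 0.708 and 2.25 CPM in the double knockouts (adjusted p = 0.591). Both thus spread most among the double knockouts, as the markers did.

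Without replicate 5, 4 of the 38 genes were lower and 2 higher, against 9.08% and 9.52% of all genes, with 31 negative and a median log2 fold change of -0.34. Among the lower genes were *Lrmp* (-1.01, adjusted p = 0.00204), *Pik3r5* (-1.11, adjusted p = 0.00757), which encodes a regulatory subunit of phosphoinositide 3-kinase γ, and the sweet and umami receptor gene *Tas1r3* (-1.55, adjusted p = 0.0258). *Ptpn6* and *Etv1* stayed higher. Log2 fold changes near 0 in that fit were found for the phospholipase gene *Plcg2* (-0.04, adjusted p = 0.892) and *Alox5ap*, which encodes the partner protein of 5-lipoxygenase (-0.06, adjusted p = 0.86).

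**Figure D3:**
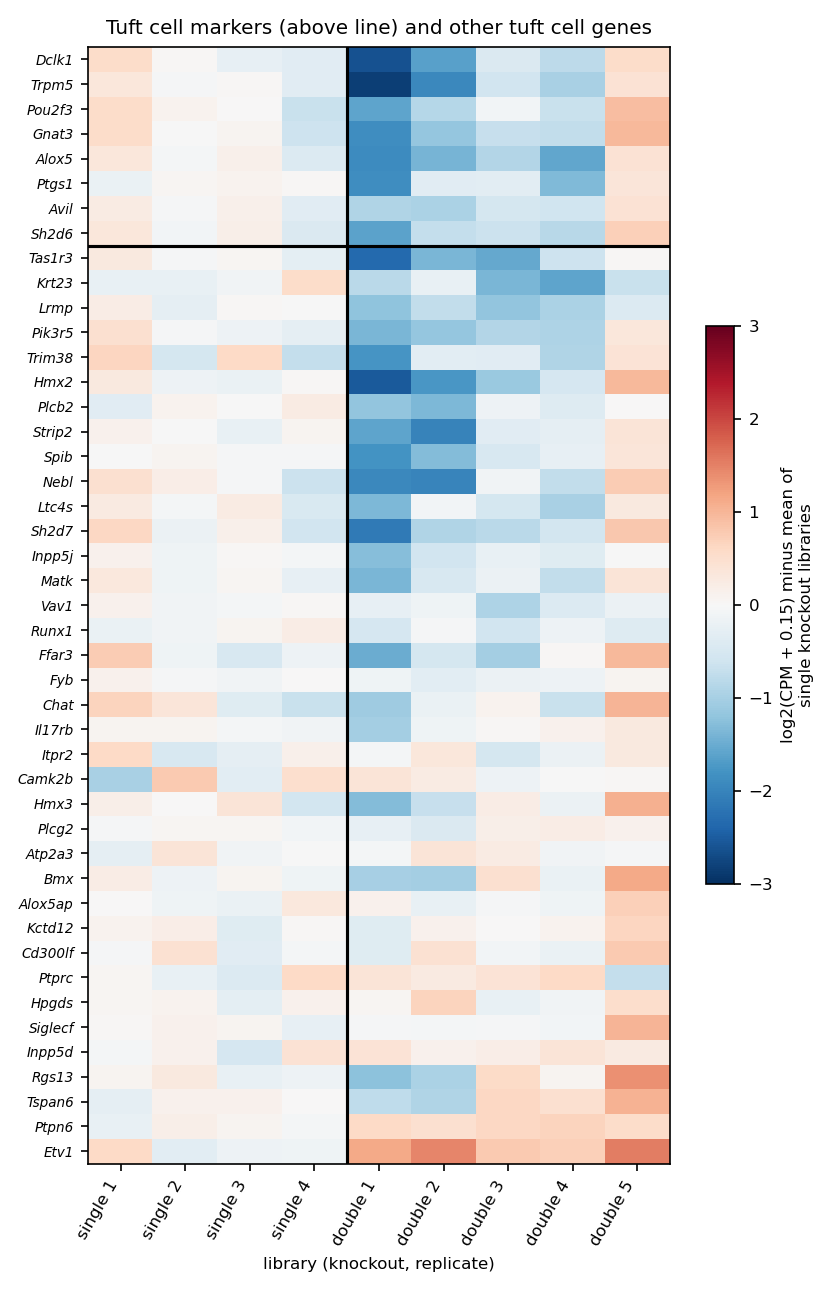
Level of the 8 tested markers (above the line) and the other tuft cell genes tested, with 1 left out, in each of the 9 libraries, as log2(CPM + 0.15) minus the mean of the 4 single knockouts, in blue where lower and red where higher, the lower block ordered by log2 fold change. The marker block is blue in double knockout replicates 1 to 4, palest in replicate 3, and red in replicate 5, while genes such as *Ptpn6* and *Etv1* at the foot are red in all 5 double knockouts.

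The pathways around the markers were followed with further lists. Their counts stand against the 6.76% of all genes called higher and 6.54% called lower with 9 libraries. Without replicate 5 these shares were 9.52% and 9.08%. The lists share members with the other tuft cell genes above, among them *Tas1r3*, *Plcb2*, *Alox5ap*, *Ltc4s*, *Hpgds* and *Il17rb*, so their counts are not separate from that list. Of 25 other genes of taste transduction, 10 could be tested, and 1 was higher (*Ffar2*, a receptor for short-chain fatty acids, log2 fold change 0.46, adjusted p = 0.022) and none lower, a share near that of all genes. *Tas1r3* had an adjusted p of 0.138 with all 9 libraries, at 1.51 to 2.37 CPM in the single knockouts and 0.256, 0.64, 0.559, 1.18 and 1.94 CPM in the double knockouts. *Plcb2*, the phospholipase of the cascade, averaged 8.31 CPM in the single and 5.72 CPM in the double knockouts (-0.54 on the log2 scale, adjusted p = 0.229). The gustducin partner *Gng13* reached at most 10 counts in any library and *Gnb3* at most 2, so neither was tested.

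Of 30 other genes of eicosanoid synthesis and breakdown, 21 could be tested, with 1 higher and none lower, a share no larger than that of all genes. The higher gene was *Ggt1*, a γ-glutamyl transferase that also acts on glutathione, which rose in all 5 double knockouts (log2 fold change 3.20, adjusted p = 0.00509). Without replicate 5 *Fam213b* was also higher (0.65, adjusted p = 0.0458). *Ltc4s*, the leukotriene C4 synthase of tuft cells, was at 1.67, 1.31, 1.66 and 0.953 CPM in the single knockouts and at 0.449, 1.28, 0.909, 0.629 and 1.71 CPM in the double knockouts (log2 fold change -0.50, adjusted p = 0.406). *Hpgds*, a prostaglandin D synthase, was at 8.84 to 11.8 and 9.3 to 17.2 CPM (adjusted p = 0.481). The more widely expressed enzymes *Pla2g4a* and *Lta4h* had log2 fold changes of 0.02 and -0.05.

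Of 25 genes of the type 2 circuit that tuft cells feed, 13 could be tested, with 1 higher and none lower, again near the share of all genes. It was *Areg*, an epidermal growth factor receptor ligand that many epithelial and immune cells make (log2 fold change 0.66, adjusted p = 0.0317). *Il13* had a count in 1 library only, *Il4* and *Il5* had at most 2 counts and 1 count in any library, and *Il9* had none, so these cytokines were not detectable at this depth. The receptor subunits *Il4ra* and *Il13ra1* were not called (log2 fold change 0.22 with adjusted p = 0.375, and 0.17 with adjusted p = 0.294), nor was *Il17rb*, the interleukin 25 receptor that tuft cells themselves carry (-0.09, adjusted p = 0.863).

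Among 14 transcription factors of secretory fate, 3 were lower and 1 higher, where 6.54% of all genes were called lower and 6.76% higher. *Foxa2* (log2 fold change -0.67, adjusted p = 0.00737), *Bhlha15* (-1.23, adjusted p = 0.0155), a factor of secretory cell maturation, and *Sox9* (-0.46, adjusted p = 0.0439), which tuft cells and crypt progenitors express, fell, and *Neurod1*, a factor of enteroendocrine cells, rose (1.56, adjusted p = 0.0205). *Atoh1*, the switch to the secretory lineage, was at 76.5, 71, 59.4 and 60.2 CPM in the single knockouts and at 48.7, 49.7, 51.4, 44.2 and 76.5 CPM in the double knockouts (log2 fold change -0.30, adjusted p = 0.211). Replicate 5 was again the exception, and without it *Atoh1* was lower (-0.45, adjusted p = 0.0169) and *Insm1*, another enteroendocrine factor, higher (1.51, adjusted p = 0.0344).

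Markers of other cell types were read in the same libraries, here and in the next paragraph. Their counts stand against the same shares of all genes, 6.76% called higher and 6.54% lower with 9 libraries. Of 15 markers of enteroendocrine cells, the other sensory lineage of this epithelium, edgeR called 7 higher and none lower (median log2 fold change 1.40), and their summed level was 98.1 to 137 CPM in the single knockouts and 192 to 275 CPM in the double knockouts. *Chga*, a granule protein, rose by a log2 fold change of 1.87 (adjusted p = 0.000405) and *Tph1*, the serotonin-forming enzyme, by 1.48 (adjusted p = 0.00471), and the other 5 were *Chgb* (1.58), *Scg2* (1.41), *Scg3* (1.48), *Cck* (1.78) and *Nts* (2.07). Not all members went this way, since *Tac1* was at -1.08 (adjusted p = 0.0581, and lower at adjusted p = 0.0485 without replicate 5), *Insl5* at -0.63 and *Sst* at -0.50. Without replicate 5, 14 of the 15 could be tested, with 8 higher (*Scg5* and *Pyy* were added and *Nts* was not tested) and 1 lower. Goblet cell markers had 1 of 10 lower, the mucin *Muc2* (-1.62, adjusted p = 0.000542), joined without replicate 5 by *Clca1*, a secreted mucus protein (-2.43, adjusted p = 0.0286). Their sum, relative to the single knockout mean, was 1.77, 0.74, 0.841 and 0.65 in single knockout replicates 1 to 4 and 0.253, 0.366, 0.52, 0.4 and 0.855 in double knockout replicates 1 to 5. Double knockout replicates 1 to 4 lay under all single knockouts and replicate 5 above all but single knockout replicate 1, which raised the mean. Abundant members weigh most in this sum, and *Clca1* gave 6740 of the 16600 CPM in replicate 5. *Muc2* did not follow the sum, since replicate 5, at 2010 CPM, lay within replicates 1 to 4 (1670 to 2760 CPM). It was below all single knockouts (4840 to 7550 CPM). Replicate 5 was the highest double knockout for 6 of the 10 goblet cell markers. The sum of the tuft cell markers in the double knockouts was 0.257, 0.405, 0.673, 0.533 and 1.44.

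Cells that share single tuft cell markers were checked in the same way, since *Alox5* and *Ptgs1* are also expressed by leukocytes and *Ptgs1* by stroma. Of 20 leukocyte markers 19 could be tested and none was called with all 9 libraries (median log2 fold change 0.22), while *Jchain*, an immunoglobulin chain of plasma cells, was higher without replicate 5 (1.22, adjusted p = 0.0176). Their summed level was 104 to 240 CPM in the single knockouts and 87.6 to 224 CPM in the double knockouts, and it was lowest in double knockout replicate 5, where *Alox5* and *Ptgs1* were highest. Stromal markers summed to 27.3 to 44.1 and 35.1 to 76.9 CPM with no call among 7 tested (median 0.37), and *Dcn*, a matrix proteoglycan, was higher without replicate 5 (1.58, adjusted p = 0.0187). Mast cell markers summed to 143 to 236 and 88.4 to 185 CPM, with *Cma1*, a mast cell protease, lower (log2 fold change -1.96, adjusted p = 0.0251) as 1 of 8 tested, and *Kit*, a receptor also found outside mast cells, gave 28.3 to 94.6 CPM of it and was lower without replicate 5 (-0.84, adjusted p = 0.0108). Platelet markers reached at most 4.69 CPM in sum and enteric neuron and glia markers 9.29 CPM, with *Elavl4*, a neuronal RNA-binding protein, higher (2.54, adjusted p = 0.0027) as 1 of 4 tested. Of 10 general epithelial genes none was called with all 9 libraries and *Elf3*, an epithelial transcription factor, was lower without replicate 5 (-0.42, adjusted p = 0.0223), and their sum was 13700 to 15700 and 12700 to 14900 CPM. Enterocyte genes of the small intestine were higher for 8 of 11 tested (among them *Mttp* 4.53, *Enpep* 5.84, *Sis* 5.75, *Slc10a2* 3.46, *Fabp6* 2.84, *Treh* 1.45 and *Anpep* 2.28 as log2 fold changes), joined without replicate 5 by *Alpi* (1.5, adjusted p = 0.0187). Their sum was 420 to 512 CPM in the single knockouts, 1050 to 1490 CPM in double knockout replicates 1 to 4 and 731 CPM in replicate 5. In replicate 5 *Anpep* (3.72 CPM) and *Alpi* (19.4 CPM) lay within their single knockout ranges, and the other genes named as higher lay above theirs. *Fabp2* and *Slc5a1*, which were not called, averaged 214 and 189 CPM of the sum in the single knockouts. Among 10 colonocyte markers *Slc37a2*, a sugar-phosphate exchanger, was lower (-1.5, adjusted p = 0.0312) and none higher, also without replicate 5. The part of these cell types in the tuft cell marker levels was not tested.

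**Figure D4:**
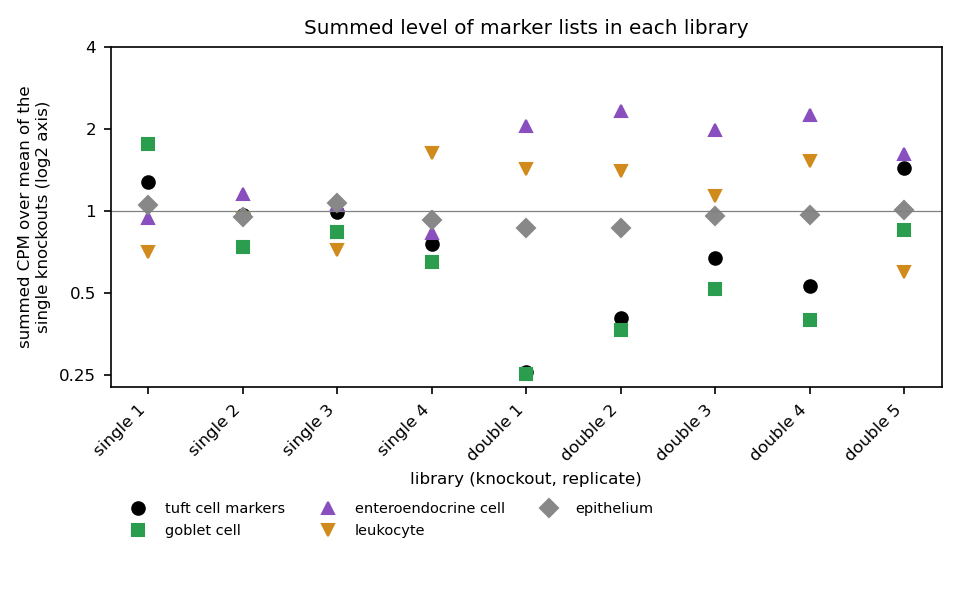
Summed CPM of 5 marker lists in each library relative to the mean of the 4 single knockouts, on a log2 axis. Tuft cell (black circles) and goblet cell (green squares) sums are low in double knockout replicates 1 to 4 and higher in replicate 5, enteroendocrine sums (purple triangles) are at 1.62 to 2.33 in all 5 double knockouts, leukocyte sums (ochre) lie between 0.598 and 1.64 over all 9 libraries, and epithelial sums (grey diamonds) between 0.866 and 1.07.

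The 5 genes outside the markers whose library pattern was most like theirs were found by the mean absolute difference of centred log2 CPM over the 9 libraries. The search covered 13692 genes averaging 1 CPM or more. They were *Nxpe2* (0.146), *Pik3r5* (0.188), *1810046K07Rik* (0.19), *Acsm3* (0.197) and *A230056P14Rik* (0.198), where the median gene differed by 0.641. *Nxpe2* was at 89, 61.2, 69 and 57.3 CPM in the single knockouts and at 25.4, 35.4, 45.1, 33.1 and 102 CPM in the double knockouts, and *Acsm3*, which encodes a medium-chain acyl-CoA synthetase, at 120 to 211 and 49.7 to 170 CPM. None of the 5 passed an adjusted p under 0.05 with all 9 libraries, and *Pik3r5* is also on the list of other tuft cell genes. These genes were chosen for their likeness, which is a description of 9 libraries and not a test.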

How the data were processed

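RNA-seq of colonic IECs was analysed in 9 libraries, 4 Smad4-knockout and 5 Smad4-knockout;Setd2-knockout, grouped by the genotype in the labels. The authors deposited whole-number read counts per gene symbol, unnormalized and unpooled, in 1 table. The submitters' processing notes name HISAT2 2.0 and mm10 (GRCm38), while the counting program, annotation and strand setting are not given in the sources used here. The table held 46095 symbols, 27 of them turned into dates and kept without a name. It held no other per-sample column. Libraries of 1 genotype differed beyond sampling noise for every pair (chi-square at least 7.76 per gene), so all were kept as replicates.

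Genes kept by filterByExpr (14593) were TMM-normalized and tested on counts with the quasi-likelihood test of edgeR 4.0.16 in R 4.3.3 over all 9 libraries, without covariates, with Benjamini-Hochberg adjustment over all genes tested. A call is an adjusted p under 0.05, and every adjusted p in the text comes from edgeR unless another tool is named. Standard errors were derived from the F statistic, and 95% intervals from the t quantile at the degrees of freedom of the fit. Alternatives were DESeq2 1.42.0, limma-voom with quality weights (limma 3.58.1), other normalizations, filters and thresholds, each library left out, the replicate number as a block, and a term for or exclusion of libraries with many Y-linked counts.

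The markers, lists and alternatives were chosen with earlier results of these data known. The genes named are the 9 markers, *Setd2*, *Smad4*, the called members of each list described (2 are counted but not reported by name here), and the 5 genes with the most similar pattern (log2 CPM, prior count 2). Members of the lists named with values that were not called, and genes overlapping a marker, were chosen after their values were seen. Precision is limited by the number of libraries, and for *Il25* by depth. The part of depth in the precision for *Gnat3* was not tested. The exact permutation test designed for markers under the filter could not reach the threshold for *Il25* with counts in 2 libraries, and is not reported. The 4 Y-linked genes served to describe libraries and to set the term and the exclusion named above.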

Additional observations from a re-analysis of the deposited data

Results flagged for a closer look

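In double knockout replicate 5, 4 markers stood far above the other 4 double knockout libraries, as the gap to the nearest library divided by the range of the group. The ratio was 0.796 for *Gnat3*, 0.787 for *Avil*, 0.766 for *Sh2d6* and 0.746 for *Alox5*. These were 4 of the 8 tested markers and 4 of the 18 groups screened, and no marker had such a gap among the single knockouts. Chance flags about 1 in 20 such groups where they are independent, while these 4 share 1 library and the markers moved together.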

How the results depend on the processing

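All 8 tested markers kept a negative log2 fold change under every alternative run, 19 for 7 of them and 18 for *Gnat3*, which a filter of 10 counts in every library removed. The count of markers called, 0 over all 9 libraries, was 1 with limma-voom and 3 among libraries with few Y-linked counts. It ranged from 0 to 5 with 1 library left out, the 5 arising without double knockout replicate 5. Of the other tuft cell genes 3 were called, 2 to 6 with 1 library left out (6 without double knockout replicate 5) and 7 among libraries with few Y-linked counts. Of all genes 1941 were called, 2927 with limma-voom, 1285 with a term for Y-linked counts, 2930 among libraries with few of them, 3107 at an adjusted p under 0.1, and 847 to 2696 with 1 library left out (847 without single knockout replicate 3, 1018, 1204 and 1183 without replicates 1, 2 and 4, and 1273 without double knockout replicate 4). Beyond what these fits drop, the cause was not tested.

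The replicate numbers did not pair the libraries. Deviations of same-numbered libraries correlated at -0.10, -0.10, 0.02 and 0.09. With the replicate block 2 markers, 3 other tuft cell genes and 1618 of all genes were called. Depth limits *Il25*. *Gnat3*, at 6 to 47 counts, had a standard error of 0.55 on the log2 scale, and *Ptgs1*, at 12 to 56 counts, of 0.4. The part of depth in these was not tested.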
